A study of Mus musculus with 7 samples.

Results

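A set of 8 genes whose products sit at the surface of thymic epithelial cells (TECs) and have been used to mark or sort TEC progenitors was followed: *Ly6a*, *Plet1*, *Pdpn*, *Cldn3*, *Cldn4*, *Itga6*, *Itgb4* and *Cd9*. They were chosen by name, with earlier results of these data known, and are 8 of the 20839 genes listed in the 7 single-cell libraries of the study. Their levels and detection were read in the 8220 of 8453 cells that had no UMI (unique molecular identifier, 1 counted transcript molecule) of *Ptprc*, the gene of the leukocyte antigen CD45. The other 233 cells had at least 1.

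All 7 libraries came from EpCAM-positive, CD45-negative cells sorted from the thymus of C57BL/6 mice, each from 1 pool of 3 thymi, so no group had a second library. In the Aire trace, mice aged 6 weeks carried *Aire*-CreERT2 and a R26-CAG-Stopfl-zsGreen reporter and received 2 mg tamoxifen every other day for 10 days, so that cells in which the *Aire* locus drove the recombinase during that time, and their progeny, carry ZsGreen. The isotype control mice received 3 treatments of 100 ug of a control antibody within a week and were taken at week 2 (aged 4 weeks) and week 10 (aged 12 weeks). The anti-RANKL mice received 3 treatments of 100 ug of an antibody that blocks RANKL, the cytokine that drives maturation of *Aire*-expressing cells, and were taken at weeks 2, 4, 6 and 10, aged 4, 6, 8 and 12 weeks. Week and age moved together and cannot be told apart, and the traced mice differed from the rest in genotype and drug.

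TECs of the cortex and the medulla arise from a shared embryonic progenitor, and progenitor cells have been sought in the adult thymus by surface proteins that other epithelia also use for this purpose. Sca-1 (the product of *Ly6a*) and PLET1 are glycosylphosphatidylinositol-anchored proteins, podoplanin (*Pdpn*) is a mucin-type protein of basal epithelial and stromal cells, and claudin-3 and claudin-4 are tight junction proteins that mark embryonic cells of the medullary lineage. Integrin α6 (*Itga6*) and integrin β4 (*Itgb4*) pair into the laminin receptor of hemidesmosomes, and CD9 is a tetraspanin that associates with integrins.

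Cells were classed by 4 gates on other genes, and levels are given in CPM, the gene's share of all UMIs of those cells scaled to 1000000. Ccl21a-high cells (*Ccl21a* above 4 on the deposited natural-log scale) numbered 3451, Aire-high cells (*Aire* above 1.5) 1769, cycling cells (at least 3 of *Top2a*, *Birc5*, *Cdk1* and *Ube2c* detected) 479 and cortical-gene cells (at least 2 of *Psmb11*, *Ackr4* and *Prss16* detected) 1029, and 2368 cells passed no gate. Gates overlapped, with 438 cells both Ccl21a-high and cortical-gene and 228 both Aire-high and cycling. At least 2 of 5 epithelial markers were found in 92.9 to 100% of the cells of each gate in each library. The summed level of 6 cortical TEC markers was 2306 to 6844 CPM in cortical-gene cells against 623 to 2201 CPM in Ccl21a-high cells. In Aire-high cells that sum was 1302 to 4881 CPM, a range that overlapped that of cortical-gene cells. Libraries held 3857876 to 22197691 UMIs, with medians of 4299.5 to 16809 UMIs per cell. Shares of cells with a UMI are therefore given after each cell was thinned to 2000 UMIs, which left out the 177 cells below that depth. At most 7 barcodes were shared by a pair of libraries. The share of Ptprc-negative cells that were Ccl21a-high ranged over libraries from 14.2 to 66.4% and that of Aire-high cells from 1.52 to 44%, so levels over all cells follow the mix of cells, and values are given within gates.

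*Ly6a*, which encodes Sca-1 and is also an interferon-inducible gene, was high in Ccl21a-high cells and low in Aire-high cells. In Ccl21a-high cells it stood at 1553 CPM in the Aire trace, at 1119 and 1092 CPM in the isotype libraries of weeks 2 and 10, and at 638, 477, 747 and 1707 CPM in the anti-RANKL libraries of weeks 2, 4, 6 and 10. In Aire-high cells the values in the same order were 257, 151, 181, 107, 84.7, 291 and 106 CPM. Every library held more *Ly6a* in its Ccl21a-high cells than any library held in its Aire-high cells. The difference was 2.74 on the log2(CPM + 1) scale (SE 0.24, n = 7 libraries, limma paired by library, adjusted p = 6.81e-06), or 6.69-fold. A UMI of *Ly6a* was found in a median of 60.6% of thinned Ccl21a-high cells (40.9 to 80.6% over libraries) and 17.7% of Aire-high cells (13.6 to 37.9%), and with all UMIs the medians were 78.8% and 59%, at median depths of 4372 to 14340.5 and 7267 to 21905 UMIs per cell. Ptprc-positive cells gave 27.3% after thinning, but most of them carried epithelial markers (a median of 89.5% with at least 2) and a median of 29.2% carried at least 2 tuft cell markers, so they are no class that lacks these genes. No background share from free RNA could be set, for this or the other members, and its part in low shares was not tested. Cells of no gate held 662 to 1208 CPM, above their Ccl21a-high cells in 3 of 7 libraries, and cortical-gene cells held 447 to 1055 CPM. Summed T cell markers were 13.8 to 79.6 CPM in Ccl21a-high cells and 5.29 to 78 CPM in Aire-high cells, and endothelial markers 3.02 to 10.8 and 11.5 to 21.2 CPM.

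*Plet1* had few UMIs in every gate. In Ccl21a-high cells it stood at 32.8 CPM in the Aire trace, at 25.8 and 17.5 CPM in the isotype libraries, and at 15.8, 15.7, 7.61 and 23.3 CPM in anti-RANKL weeks 2, 4, 6 and 10. Aire-high cells held 0.838 to 12.1 CPM, and the difference in favour of Ccl21a-high cells was 1.97 (log2, SE 0.39, adjusted p = 0.00148), in the same direction in 7 of 7 libraries. *Plet1* passed the filter of a mean of 10 CPM only through the Ccl21a-high cells, at a mean of 20 CPM against 4.92 CPM in Aire-high cells. The call held in 19 of 19 alternatives, among them the fit without that filter. Only a median of 4.81% of thinned Ccl21a-high cells and 1.10% of Aire-high cells had a UMI (13.2% and 2.91% with all UMIs). The highest levels were in cells of no gate, the top class in 6 of 7 libraries, at 49.5, 59.5, 30.5, 60.4, 24.9, 7.19 and 30.3 CPM in the order above. Among those cells, the 338 with at least 2 of 4 tuft cell markers (*Trpm5*, *Dclk1*, *Pou2f3*, *Avil*) held a median of 44.8 CPM over libraries against 29.6 CPM in the other 2030, with ranges of 34.1 to 96.7 and 4.42 to 62.9 CPM that overlapped.

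**Figure D1:**
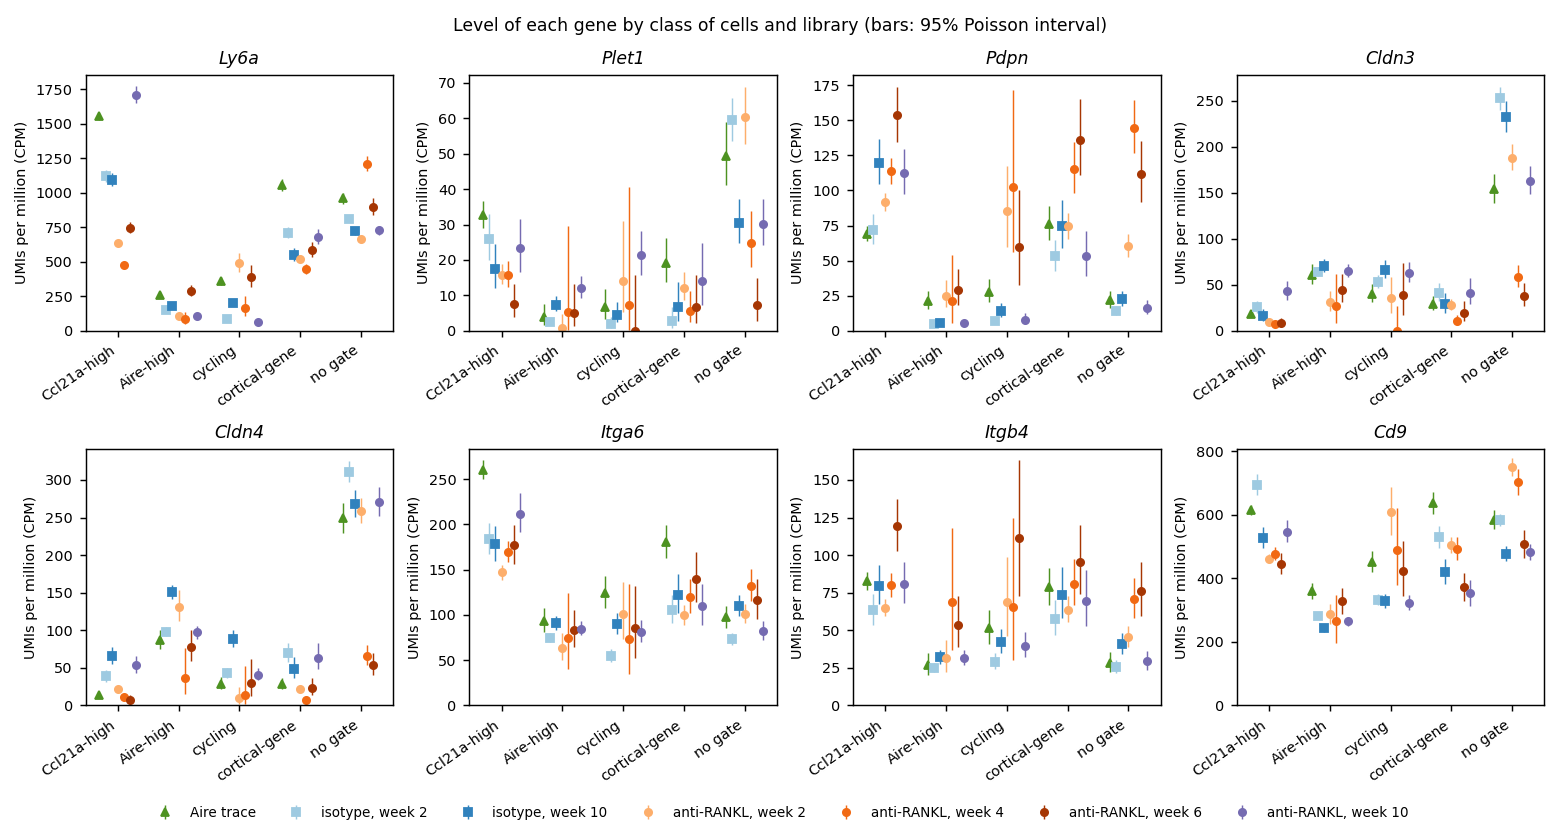
Level of each of the 8 genes (CPM, linear axes from 0) in the 5 classes of cells, 1 symbol per library with its 95% Poisson interval, which covers counting error only. *Ly6a* is between 477 and 1707 CPM in Ccl21a-high cells and between 84.7 and 291 CPM in Aire-high cells, while *Cldn3* and *Cldn4* are highest in cells of no gate in 6 of 7 libraries each.

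*Pdpn* was higher in Ccl21a-high than in Aire-high cells. Ccl21a-high cells held 69.2 CPM in the Aire trace, 71.8 and 120 CPM in the isotype libraries and 91.5, 114, 154 and 113 CPM in the anti-RANKL libraries, against 21, 4.72, 5.41, 25.2, 21.2, 29.4 and 5.38 CPM in Aire-high cells. The groups of values did not overlap, and the difference was 3.01 (log2, SE 0.33, adjusted p = 2.60e-05), or 8.06-fold. Cortical-gene cells stood at 53 to 136 CPM, with a difference from them of -0.43 (SE 0.18, adjusted p = 0.0994) and from Aire-high cells of 2.84 (SE 0.32, adjusted p = 4.09e-05). A UMI was present in a median of 17.9% of thinned Ccl21a-high cells and 2.54% of Aire-high cells (45.5% and 12.7% with all UMIs).

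*Pdpn* is also a gene of fibroblastic stroma, and fibroblast markers moved with it. The summed level of 6 such markers was 193 to 505 CPM in Ccl21a-high cells and 40.5 to 265 CPM in Aire-high cells. In cells of no gate *Pdpn* was 14.2 to 22.5 CPM in the trace, both isotype libraries and anti-RANKL week 10, but 60.4, 145 and 112 CPM at anti-RANKL weeks 2, 4 and 6, and the fibroblast sum was 977, 1337 and 1065 CPM in those 3 libraries against 238 to 380 CPM in the other 4. That sum was nearly all *Dcn*, at 922, 1276 and 1031 CPM, while *Pdgfra*, a defining fibroblast gene, had 1, 2 and 0 UMIs against 0 to 8 in the other 4. *Pdgfrb* went the other way, with 9, 0 and 0 UMIs against 18 to 37 (5.84 to 9.5 CPM). *Col3a1* was higher in each of these libraries, at 27.5, 17.6 and 12.3 CPM against 0.308 to 9.1 CPM in the other 4. *Lum* was at 12.2, 40.7 and 20.6 CPM against 2.37 to 16.9 CPM, higher at weeks 4 and 6 only, and *Col1a1* was at 13.1, 1.22 and 1.03 CPM against 0 to 18.5 CPM. The part of fibroblast RNA was not tested. With cells of at least 2 fibroblast markers left out, *Pdpn* in cells of no gate was 53.8, 142 and 119 CPM in the same 3 libraries and 14.2 to 21.9 CPM in the others. The contrast between Ccl21a-high and Aire-high cells kept 8 of 8 calls with such cells and those with 2 T cell markers left out.

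*Cldn3* and *Cldn4* went the other way. In Ccl21a-high cells *Cldn4* stood at 14.5, 39.1, 65.7, 21.8, 11.2, 7.61 and 54 CPM in the Aire trace, isotype weeks 2 and 10 and anti-RANKL weeks 2, 4, 6 and 10, and in Aire-high cells at 86.7, 98.3, 151, 132, 37.1, 77.9 and 97.2 CPM. *Cldn3* gave 18.1, 25.8, 16.4, 9.19, 7.35, 8.25 and 43.2 CPM in Ccl21a-high cells and 61, 64.2, 70.8, 31, 26.5, 44.7 and 65.5 CPM in Aire-high cells. Within every library both claudins were lower in Ccl21a-high cells, although values of different libraries overlapped. The differences were -2.04 for *Cldn4* (log2, SE 0.25, adjusted p = 5.71e-05) and -1.69 for *Cldn3* (SE 0.17, adjusted p = 1.31e-05). That of *Cldn3* lost its call when cells were thinned (-1.35, adjusted p = 0.13) and when the deepest 5% of cells were left out (-1.18, adjusted p = 0.118), within a range of 4.96e-07 to 0.13 over the alternatives. Thinned Ccl21a-high cells had a *Cldn3* UMI in a median of 1.75% and a *Cldn4* UMI in 2.05%, against 9.93% and 17.3% of Aire-high cells (7.66% and 8.77% against 36.2% and 46.8% with all UMIs).

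Both claudins were highest in cells of no gate in 6 of 7 libraries, the exception being anti-RANKL week 6. *Cldn4* stood there at 248.8, 311, 269, 259, 66.3, 53.4 and 271 CPM in the order above and *Cldn3* at 154, 253, 233, 188, 59, 38 and 163 CPM. The libraries of anti-RANKL weeks 4 and 6 were below every other library for both genes. These 2 libraries were also the shallowest per cell. Thinned cells with a *Cldn4* UMI made up a median of 22.6% (5.66 to 32%) and with a *Cldn3* UMI 21.5% (5.36 to 31.5%). The tuft-marker cells held a median of 136 CPM of *Cldn4* against 281 CPM in the other cells of no gate, and 164 against 163 CPM of *Cldn3*. With the tuft-marker cells left out, cells of no gate with an *Aire* UMI, below the gate's threshold, held medians of 232 CPM of *Cldn4* (85.7 to 335) and 157 CPM of *Cldn3* (55.1 to 220). Those without held 287 CPM (38 to 428) and 203 CPM (20.8 to 347), so both kinds of cell overlapped over libraries.

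The claudin pair lies on chromosome 5, in opposite orientation, with 39.279 kb between the genes (GRCm38, GENCODE vM21): *Cldn3* at chr5:134986214-134987472 on the plus strand and *Cldn4* at chr5:134945119-134946934 on the minus strand. Their promoters are shown because the pair moved together across cells, beside that of *Pdpn* (gene at chr4:143267431-143299564, minus strand), which moved the other way. Each window, from RefSeq for GRCm38.p6, spans 250 bases before to 50 after the annotated start, written 5′ to 3′ on the gene's strand, with capitals on the letters CACCTG or their reverse complement CAGGTG, an E-box sequence. The windows are chr5:134985964-134986263 (*Cldn3*), chr5:134946885-134947184 (*Cldn4*) and chr4:143299515-143299814 (*Pdpn*).
Cldn3: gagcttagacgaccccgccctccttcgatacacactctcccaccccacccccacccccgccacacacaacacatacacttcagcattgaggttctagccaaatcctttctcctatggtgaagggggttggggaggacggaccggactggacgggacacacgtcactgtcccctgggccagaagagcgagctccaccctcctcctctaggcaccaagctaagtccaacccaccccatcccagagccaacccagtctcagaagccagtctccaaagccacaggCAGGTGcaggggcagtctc
Cldn4: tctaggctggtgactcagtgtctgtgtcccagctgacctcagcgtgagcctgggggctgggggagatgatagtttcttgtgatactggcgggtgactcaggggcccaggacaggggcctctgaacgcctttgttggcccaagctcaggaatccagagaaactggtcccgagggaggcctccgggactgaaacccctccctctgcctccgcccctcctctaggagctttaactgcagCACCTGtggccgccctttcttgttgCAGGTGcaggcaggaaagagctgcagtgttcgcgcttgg
Pdpn: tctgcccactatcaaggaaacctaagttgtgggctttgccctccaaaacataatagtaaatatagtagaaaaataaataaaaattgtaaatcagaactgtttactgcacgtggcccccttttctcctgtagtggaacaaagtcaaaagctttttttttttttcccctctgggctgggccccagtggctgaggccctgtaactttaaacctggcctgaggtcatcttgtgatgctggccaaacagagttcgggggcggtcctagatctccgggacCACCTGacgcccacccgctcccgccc
These 6 letters on either strand began 32 bases from the start in *Cldn3*, -14 and 12 in *Cldn4* and 25 in *Pdpn*. They were found in 5 of the 5 member windows in the table (*Plet1* and *Cd9* too, at -247 and -73) and in 20.2% of all 32851 promoter windows. The letters GGGCGG (either strand) were in 4 of the 5, against 35.7% of windows, and TATAAA (either strand) only in *Plet1*, at -30, against 13.6%. The 3 motifs were chosen after the sequences were seen, and a match is a description of letters, not of a bound site.

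*Itga6* and *Itgb4* followed the Ccl21a-high cells. *Itga6* was at 261 CPM in the Aire trace, 184 and 179 CPM in the isotype libraries and 147, 170, 177 and 212 CPM in the anti-RANKL libraries, the highest of the 5 classes in 7 of 7 libraries. Aire-high cells held 63.7 to 93.9 CPM, so the values did not overlap, and the difference of 1.30 (log2, SE 0.085, adjusted p = 1.03e-06) had the smallest SE of the 8. *Itgb4* was at 82.9, 63.3, 79.5, 64.8, 80, 119 and 80.7 CPM in Ccl21a-high cells and 24.9 to 68.8 CPM in Aire-high cells, with a difference of 1.22 (SE 0.15, adjusted p = 5.17e-05). Values of different libraries overlapped, and the highest Aire-high value came from the 22 Aire-high cells of anti-RANKL week 4. In cortical-gene cells *Itga6* was lower than in Ccl21a-high cells by 0.83 (log2, SE 0.088, adjusted p = 5.19e-05, lower in 7 of 7 libraries), while *Itgb4* differed by -0.21 and was not called (SE 0.10, adjusted p = 0.16). With median-of-ratios scaling *Itgb4* was called lower too (-0.30, adjusted p = 0.0398). With all 3 cortical genes required *Itga6* lost its call (-1.60, adjusted p = 0.187). The difference between the *Itga6* and *Itgb4* differences was not tested.

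*Cd9* was higher in Ccl21a-high than in Aire-high cells. It stood at 615, 694, 527, 462, 478, 445 and 547 CPM in Ccl21a-high cells, at 242 to 360 CPM in Aire-high cells and at 477 to 749 CPM in cells of no gate. The difference between Ccl21a-high and Aire-high cells was 1.90-fold (log2 0.93, SE 0.089, adjusted p = 1.11e-05). After thinning a median of 57.8% of Ccl21a-high, 52.4% of no-gate and 35.5% of Aire-high cells had a UMI.

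Across the 6 pairs of gates the 8 genes were tested with all others, in fits that left out cells passing both gates of a pair. Calls were common among all genes, and the counts below are to be read against that background. Of the 8 members, 6 were higher and 2 lower in Ccl21a-high than in Aire-high cells, where 35.2% of the 8306 genes tested were called higher and 24% lower. *Plet1*, among the 6, passed the filter on low values only through the Ccl21a-high cells, here and in the other pairs with those cells. In cortical-gene against Aire-high cells, *Ly6a* (log2 2.31), *Pdpn* (2.84), *Itga6* (0.77), *Itgb4* (1.23) and *Cd9* (0.82) were higher and *Cldn3* (-1.2) and *Cldn4* (-2.0) lower, against 33.9% and 18.9% of all genes, and *Plet1* did not reach the level needed for testing. The 938 cortical-gene cells of this fit included cells that were also Ccl21a-high, the class high in the genes called higher (438 cells in all passed both of those gates). With cells of any other gate left out, 490 cortical-gene cells remained, and *Ly6a*, *Pdpn*, *Itga6*, *Itgb4* and *Cd9* kept their calls. The median gene differed there by 0.22 with total-count scaling and 0.020 with median-of-ratios scaling, under which 23.3% of genes were higher and 25.1% lower and the 7 members kept their calls and directions. *Cldn3* lost its call with other gates' cells left out (-0.68, adjusted p = 0.0712) and with the deepest 5% of cells left out (-0.72, adjusted p = 0.271), within a range of 0.000109 to 0.271 over the alternatives, and *Itga6* lost its call with all 3 cortical genes required (0.32, adjusted p = 0.411).

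Cortical-gene cells were also tested against Ccl21a-high cells, with 591 of them in the fit. *Cldn3* (log2 1.06, adjusted p = 0.00368) and *Cldn4* (0.67, adjusted p = 0.0454) were higher, *Ly6a* (-0.64, adjusted p = 0.0359), *Plet1* (-1.2, adjusted p = 0.0208) and *Itga6* (-0.83) lower, and *Pdpn*, *Itgb4* and *Cd9* (-0.10, adjusted p = 0.62) were not called. Of all 8393 genes, 16.7% were higher and 10.4% lower. With median-of-ratios scaling 12.5% were higher and 14.4% lower, *Cldn4* lost its call (0.59, adjusted p = 0.0833) and *Pdpn* (-0.52, adjusted p = 0.0474) and *Itgb4* (-0.30, adjusted p = 0.0398) gained one, so that 1 member was higher and 5 lower. The claudin calls changed with the gate. With all 3 cortical genes required (129 cells) *Cldn3* was at -2.02 (adjusted p = 0.061) and *Cldn4* at -1.74 (adjusted p = 0.0557), so the sign turned. The alternatives for *Cldn3* ranged from 2.82e-05 to 0.064 in adjusted p and those for *Cldn4*, called in 6 of 19, from 0.0125 to 0.173. *Plet1* lost its call without the Aire trace (-0.99, adjusted p = 0.0596) and without isotype week 2 (-0.94, adjusted p = 0.0545), within a range of 0.00862 to 0.0596. It passed the filter of 10 CPM only through the Ccl21a-high cells, at 21.6 CPM against 9.25 CPM in cortical-gene cells. *Itga6* lost its call with all 3 cortical genes required (-1.60, adjusted p = 0.187), within a range of 2.60e-05 to 0.187. The *Ly6a* call held in 8 of 19 alternatives. It was lost without the Aire trace, either isotype library or anti-RANKL week 6 or 10 (-0.66 to -0.48), at -0.22 (adjusted p = 0.371) with other gates' cells left out and at -0.31 (adjusted p = 0.324) when thinned, within a range of 0.00296 to 0.371. Without the Aire trace or without isotype week 2 the calls of members fell to 2 of 8, and to 3 without anti-RANKL week 6 or week 10.

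Cycling cells were tested with the cells they overlapped left out. Against Aire-high cells, *Pdpn* (log2 1.32, SE 0.26, adjusted p = 0.0029), *Itgb4* (0.76, SE 0.19, adjusted p = 0.00986) and *Cd9* (0.61, SE 0.12, adjusted p = 0.00233) were higher and *Cldn4* was lower (-1.78, SE 0.33, adjusted p = 0.00199), where 21.2% of 8172 genes were higher and 18.5% lower. With median-of-ratios scaling these shares were 15.4 and 23.4%, the median gene moved from 0.042 to -0.11, and 3 members were still higher and 1 lower. *Ly6a* was at 0.60 (adjusted p = 0.124), *Cldn3* at -1.03 (adjusted p = 0.14) and *Itga6* at 0.17 (adjusted p = 0.445), and *Plet1* did not reach the level needed for testing. The fit held 251 cycling cells once the Aire-high ones were left out. Of all cycling cells 68 were also Ccl21a-high, the class with high *Pdpn*, *Itgb4* and *Cd9*, among them 24 in the Aire trace, 10 at anti-RANKL week 2 and 8 at week 4, and their part in these differences was not tested. Cycling cells that were themselves Aire-high (222 cells of 4 libraries) held 2.59 to 9.10 CPM of *Pdpn*, against 3.90 to 26.7 CPM in Aire-high cells that were not cycling (7 libraries). With cells of any other gate left out, which removed 3 of the 7 libraries, *Ly6a* turned to -0.82 (adjusted p = 0.00863), while with thinned cells of all 7 libraries it was called higher, at 0.87 (adjusted p = 0.0283), and the other 17 of 19 alternatives gave no call (range 0.00863 to 0.764). *Pdpn* turned to -0.57 when cells were thinned (adjusted p = 0.761), and lost its call with other gates' cells left out (0.54, adjusted p = 0.294) and with the deepest 5% of cells left out (1.05, adjusted p = 0.0637), within a range of 0.00228 to 0.761. *Itgb4* lost its call when thinned (1.20, adjusted p = 0.121) and with all 4 cycling genes required (0.61, adjusted p = 0.165), within a range of 0.00196 to 0.165. *Cd9* lost its call when thinned (0.56, adjusted p = 0.11), with the deepest 5% left out (0.39, adjusted p = 0.077) and with all 4 cycling genes required (0.31, adjusted p = 0.206), within a range of 0.000324 to 0.206. *Cldn4* kept its call in 19 of 19, and *Cldn3* was called in 2, both at -0.56 (adjusted p = 0.0299) without the 3 early anti-RANKL libraries. The cycling cells of the 3 early anti-RANKL libraries numbered 17, 14 and 17. Those of week 4 held 0 UMIs of *Cldn3* (upper bound 27 CPM), and without that library the *Cldn3* difference was -0.40 (adjusted p = 0.0905). Their summed T cell markers stood at 460.5 CPM, against 5.29 CPM in the Aire-high cells of that library and 11.4 to 103 CPM in the cycling cells of the other 6, and the part of T cell RNA was not tested.

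Against Ccl21a-high cells, in the 5 libraries with enough cells of each, cycling cells held less *Ly6a* (-3.47, SE 0.39, adjusted p = 0.000183), *Pdpn* (-2.98), *Plet1* (-2.48), *Itga6* (-1.41), *Itgb4* (-0.89) and *Cd9* (-0.76) and more *Cldn3* (1.59, SE 0.29, adjusted p = 0.00227), with *Cldn4* at 0.71 (adjusted p = 0.11, called in 3 of 17 alternatives). *Itgb4* lost its call when cells were thinned (-0.72, SE 0.35, adjusted p = 0.198), within a range of 2.21e-05 to 0.198, and the other 6 called members kept theirs in 17 of 17. Of these, *Plet1* passed the filter of 10 CPM only through the Ccl21a-high cells, at 22 CPM against 5.68 CPM in cycling cells. The background was 24.4% higher and 28% lower of 8064 genes. Cycling cells that were themselves Ccl21a-high (46 cells in 3 libraries) held 865 to 955 CPM of *Ly6a*, against 50.5 to 155.5 CPM in the 222 cycling cells of 4 libraries that were Aire-high. The cycling gate thus held cells of both high and low *Ly6a*. Cortical-gene cells exceeded cycling cells in *Ly6a* (1.68, adjusted p = 0.00556), *Pdpn* (1.68, adjusted p = 0.00478), *Itga6* (0.52, adjusted p = 0.0144) and *Itgb4* (0.48, adjusted p = 0.0493), with 25.2% of 8299 genes higher and 14.7% lower, and *Cldn3*, *Cldn4* and *Cd9* were not called. *Plet1* did not reach the level needed for testing. *Cd9* was called higher in 5 of 19 alternatives, among them with other gates' cells left out (1.06, adjusted p = 9.63e-05) and with at least 25 cells per library and gate (0.46, adjusted p = 0.00813), within a range of 9.63e-05 to 0.446. *Cldn3* was called lower in 5 of 19, at -2.85 to -0.76, within a range of 0.00626 to 0.976, and *Cldn4* in 1, at -2.22 (adjusted p = 0.00108) with all 3 cortical genes required. *Itga6* lost its call when thinned (0.33, adjusted p = 0.444), with the deepest 5% left out (0.42, adjusted p = 0.0655) and with all 3 cortical genes required (0.24, adjusted p = 0.609), within a range of 0.00227 to 0.609. The *Itgb4* call held in 9 of 19 alternatives. It was lost with median-of-ratios scaling (0.40, adjusted p = 0.085), when thinned (0.27, adjusted p = 0.665) and without the Aire trace, either isotype library or anti-RANKL week 10 (0.38 to 0.45), within a range of 0.000842 to 0.665.

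**Figure D2:**
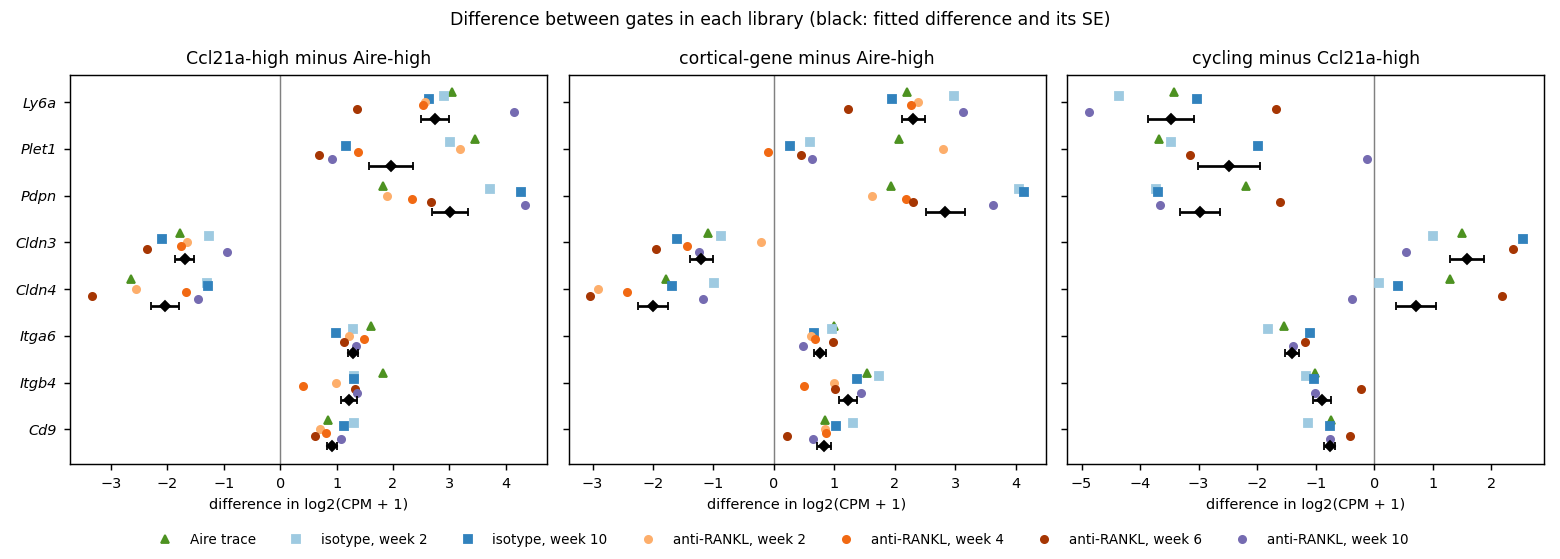
Difference in log2(CPM + 1) of each gene between pairs of gates, 1 coloured symbol per library and the fitted difference with its SE in black. In Ccl21a-high minus Aire-high cells all 7 libraries lie right of 0 for *Ly6a*, *Plet1*, *Pdpn*, *Itga6*, *Itgb4* and *Cd9* and left of 0 for *Cldn3* and *Cldn4*.

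Between treatments each time point had 1 library on each side, so ratios carry a 95% interval from counting alone and treatment was not tested. Within Ccl21a-high cells, *Ly6a* in the anti-RANKL library was 0.57 times that of the isotype library at week 2 (interval 0.544 to 0.597) and 1.56 times at week 10 (1.48 to 1.65). It was lowest at anti-RANKL week 4 and highest at anti-RANKL week 10, and the 2 isotype libraries lay between. Summed cortical markers in these cells were 1953 against 623 CPM at week 2 and 1268 against 967 CPM at week 10. At week 2, 120 of the 684 anti-RANKL and 15 of the 160 isotype Ccl21a-high cells also passed the cortical gate, with *Ly6a* at 401 and 644 CPM. Without such cells *Ly6a* was at 699.5 against 1167 CPM at week 2. *Cldn3* in Ccl21a-high cells was 0.356 times (0.252 to 0.504) at week 2 and 2.63 times (1.71 to 4.13) at week 10. At week 10, 5 of the 246 anti-RANKL and 5 of the 208 isotype Ccl21a-high cells were also Aire-high. Without such cells *Cldn3* was at 31.9 against 16 CPM.

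*Pdpn* was 1.28 times the isotype value in Ccl21a-high cells at week 2 (1.08 to 1.51) but 5.32 times in Aire-high cells (3.27 to 8.54), 12.1 times in cycling cells (7.20 to 20.4) and 4.25 times in cells of no gate (3.31 to 5.49). At week 10 the same ratios were 0.939, 0.995, 0.563 and 0.727, and each interval held 1. The high ratios at week 2 thus stood in the classes in which *Pdpn* was low in the isotype library. Ccl21a-high cells were 57.8% of the anti-RANKL and 14.2% of the isotype cells at week 2, and the part of their RNA in the *Pdpn* of the other classes was not tested. At week 2, 10 of 17 anti-RANKL cycling cells and 7 of 119 isotype cycling cells were also Ccl21a-high. Summed fibroblast markers were 430 against 34.2 CPM in cycling cells and 142 against 70.7 CPM in Aire-high cells, and their part was not tested either.

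**Figure D3:**
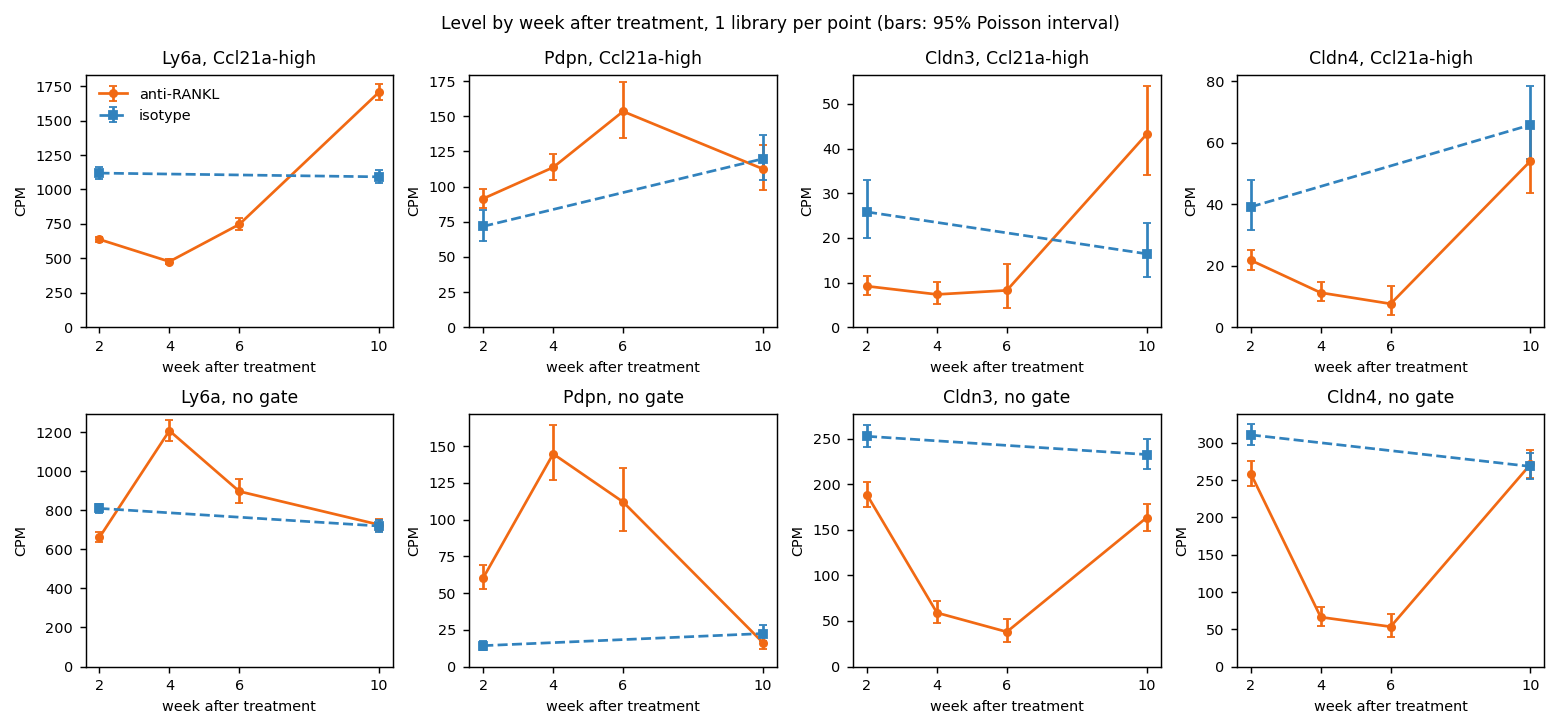
Level (CPM) by week after treatment in the anti-RANKL and isotype libraries, 1 library per point with its 95% Poisson interval. *Ly6a* in Ccl21a-high cells runs from 638 CPM at week 2 through 477 and 747 CPM to 1707 CPM at week 10 after anti-RANKL, with isotype libraries at 1119 and 1092 CPM.

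Detection of pairs in the same cell was compared, within each class and library, with the number of cells expected if the 2 genes were detected independently. That number treats the cells of a class as 1 kind. Cells of no gate were mixed, and those with at least 2 tuft cell markers held 0 to 10.3 CPM of *Pdpn*, against 14.7 to 163 CPM in the rest. The part of such a mix in the ratios was not tested. In cells of no gate, thinned to 2000 UMIs, *Cldn3* and *Cldn4* were both found in 209 of 2313 cells where 126 were expected, a ratio of 1.66 (95% Poisson interval 1.44 to 1.90), above 1 in the 6 of 6 libraries that expected at least 1 cell. *Plet1* joined them, at 1.86 with *Cldn3* (1.40 to 2.42) and 1.58 with *Cldn4* (1.17 to 2.09), above 1 in 5 of 5 libraries each. *Pdpn* was found apart from the claudins, at 0.447 with *Cldn3* (0.25 to 0.737) and 0.306 with *Cldn4* (0.153 to 0.548), below 1 in 7 of 7 libraries for both. It was found together with *Ly6a* (1.38, interval 1.18 to 1.61) and with *Cd9* (1.29, interval 1.10 to 1.5) in 7 of 7 libraries. The integrin chains had a ratio of 1.52 (1.14 to 1.99), above 1 in 6 of 7 libraries.

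With all UMIs the same ratios lay closer to 1, at 1.36 for *Cldn3* and *Cldn4* and 0.602 for *Pdpn* and *Cldn4*, on the same sides. Within Ccl21a-high cells pairs of members that are high there lay nearer to 1. *Ly6a* with *Itga6* was at 1.08 (1.002 to 1.161), above 1 in 7 of 7 libraries, and *Ly6a* with *Cd9* at 1.06 (1.003 to 1.121), above 1 in 6 of 7. *Ly6a* with *Pdpn* was at 1.05 (0.945 to 1.17), above 1 in 4 of 7, and *Itga6* with *Itgb4* at 1.10 (0.938 to 1.27), above 1 in 6 of 7. With cells thinned to 4000 UMIs *Ly6a* with *Itga6* was at 1.03 (0.965 to 1.09) and *Ly6a* with *Cd9* at 1.02 (0.975 to 1.07), so these intervals no longer lay clear of 1. In Aire-high cells *Cldn3* and *Cldn4* were at 1.41 (1.02 to 1.89), above 1 in 4 of 4 libraries. At least 3 of the 8 genes were found in 19.3 to 39% of thinned Ccl21a-high cells, in 23 to 32.3% of cells of no gate and in 4.55 to 10.2% of Aire-high cells.

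**Figure D4:**
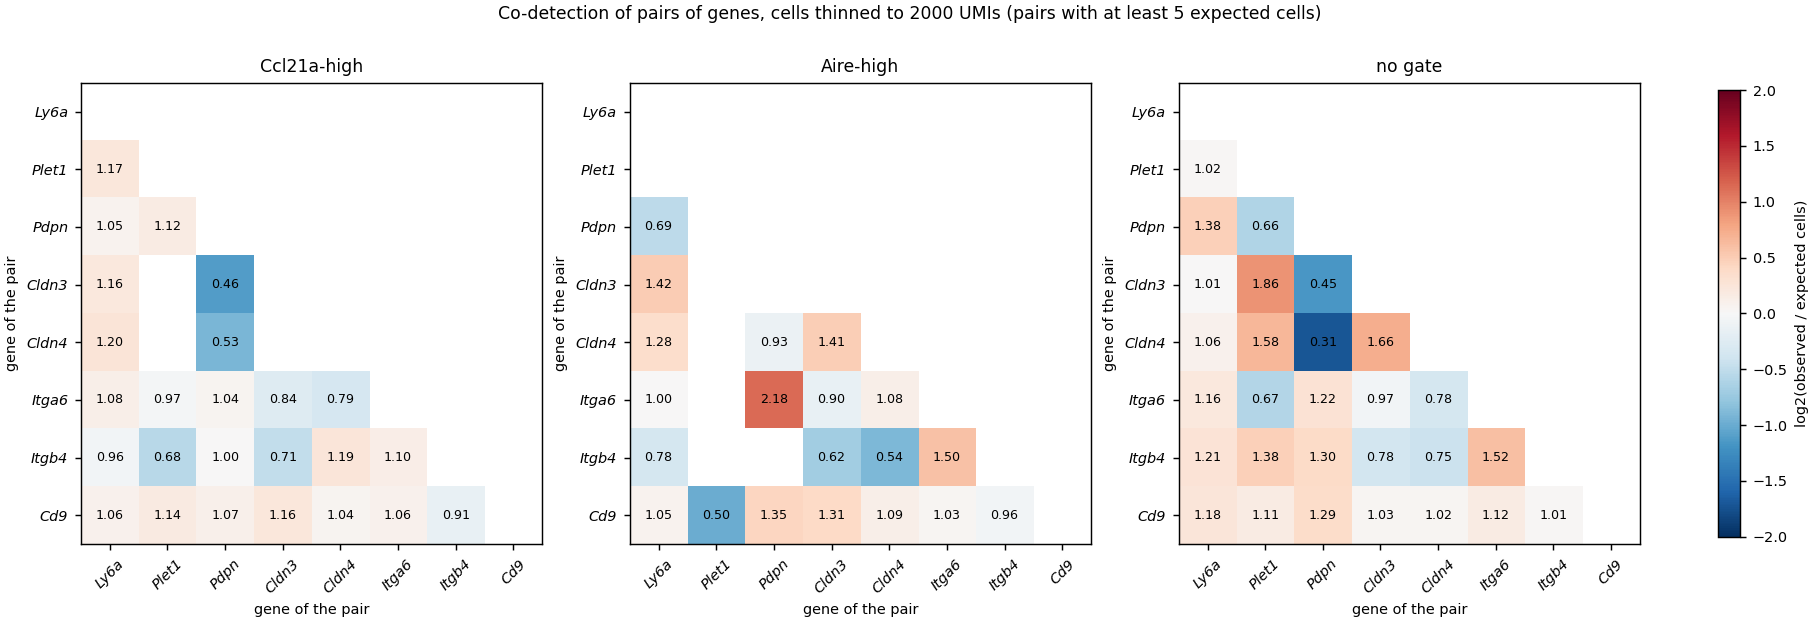
Observed over expected number of cells with both genes of a pair (log2 colour scale, cells thinned to 2000 UMIs, pairs with at least 5 expected cells). In cells of no gate the pair *Cldn3* and *Cldn4* is above expectation (ratio 1.66) and the pairs of *Pdpn* with either claudin are below it (0.447 and 0.306).

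In the Aire trace, a UMI of the ZsGreen reporter was found in 326 of 875 Ccl21a-high cells, and a cell without one may still carry the label. Ccl21a-high cells with a reporter UMI held 31.7 CPM of *Cldn3* against 6.77 CPM in those without, a ratio of 4.68 (3.17 to 7.09, counting error only), and 20.8 against 9.23 CPM of *Cldn4*, a ratio of 2.25 (1.55 to 3.31). *Ly6a* (ratio 0.843, interval 0.815 to 0.872), *Pdpn* (0.723, 0.611 to 0.853) and *Itga6* (0.808, 0.743 to 0.879) were lower in cells with the reporter, and *Cd9* was at 1.05 (0.995 to 1.11). The differences of both claudins, *Ly6a*, *Pdpn* and *Itga6* ran in the direction of those between Aire-high and Ccl21a-high cells. That of *Cd9*, whose interval held 1, ran against it. *Itgb4* (0.868, interval 0.747 to 1.007) and *Plet1* (0.956, interval 0.753 to 1.21) had intervals that held 1 as well. Median depth was 10290 UMIs in the cells with a reporter UMI and 8121 in those without, and after thinning 3.37 and 2.19% had a *Cldn3* UMI. The *Cldn3* UMIs of the cells with the reporter were in few of them, 128 UMIs in 39 cells, against 33 UMIs in 28 cells without it.

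Cortical-gene cells split likewise, with 44.4 CPM of *Cldn3* in the 82 cells with the reporter and 4.97 CPM in the 79 without (ratio 8.94, interval 3.31 to 33.9), the latter resting on 4 UMIs. For *Cldn4* the values were 45.2 and 1.24 CPM, the latter from 1 UMI, a ratio of 36.4 (6.28 to 1461). In cells of no gate, 164 with and 82 without, *Cldn4* was at 287 against 128 CPM (ratio 2.23, interval 1.76 to 2.87) and *Cldn3* at 2.05 times (1.53 to 2.80), while *Pdpn* was at 0.284 times (0.16 to 0.499) and *Plet1* at 0.543 times (0.373 to 0.799). The *Pdpn* ratio rests on 26 and 29 UMIs, and after thinning 4.88% of the no-gate cells had a *Pdpn* UMI both with and without the reporter, and 4.27 and 4.88% a *Plet1* UMI, so no difference in detection was seen for either. In these 3 classes the summed level of the claudins was thus higher in cells with a reporter UMI, in this 1 library, and 94 of the 161 cortical-gene cells were also Ccl21a-high. Cycling cells, 44 with and 27 without, gave intervals that hold 1 for the claudins and *Pdpn*, with *Cldn3* at 37.3 against 47.3 CPM (ratio 0.788, interval 0.469 to 1.35), *Cldn4* at 1.26 times (0.652 to 2.6) and *Pdpn* at 0.666 times (0.357 to 1.27). There *Ly6a* was lower with the reporter, at 281 against 526 CPM (ratio 0.535, interval 0.454 to 0.63), and so was *Cd9* (0.653, interval 0.5635 to 0.758). The intervals of *Plet1*, *Itga6* and *Itgb4* held 1. *Ly6a* was also lower with the reporter in cortical-gene cells (0.762, interval 0.7 to 0.829) and in cells of no gate (0.738, interval 0.676 to 0.806). Of the Aire-high cells 106 had a reporter UMI and 12 had none, with *Cldn3* at 58 against 82.5 CPM, *Cldn4* at 91.6 against 51.1 CPM and *Pdpn* at 23.9 against 0 CPM (upper bound 14.5 CPM).

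**Figure D5:**
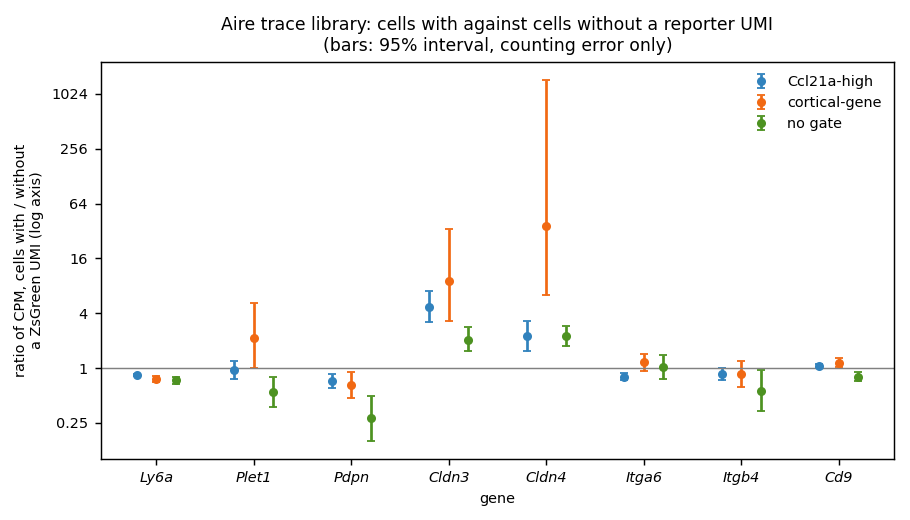
Ratio of CPM in cells with against cells without a ZsGreen reporter UMI in the Aire trace (log axis, 95% intervals from counting error only), by gene and class of cells. *Cldn3* and *Cldn4* lie above 1 in Ccl21a-high (4.68 and 2.25), cortical-gene (8.94 and 36.4) and no-gate cells (2.05 and 2.23), and *Pdpn* lies below 1 in the same classes.

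Across the 35 summed profiles (5 classes in 7 libraries, which share libraries and cells) the genes closest to each member were taken by Pearson's r of log2(CPM + 1), as a description. *Cldn3* lay nearest to *Cldn7*, another claudin (r = 0.932), *Rab25*, a small GTPase of epithelial membrane traffic (0.915), and *Pglyrp1* (0.905), and *Cldn4* to *Mxd1* (0.915), *Nos2* (0.899) and *AW112010* (0.887). *Pdpn* lay nearest to *Anxa2* (0.953), *Myl9* (0.951) and *Lpp* (0.939). *Itgb4* lay nearest to *Tagln* (0.914), which with *Myl9* belongs to the contractile cytoskeleton, *Ptk7* (0.901) and *Flna* (0.887). *Ly6a* lay nearest to *Gsn* (0.942), *Lgals3bp* (0.925) and *Isg15*, an interferon-induced gene (0.917). *Itga6* lay nearest to *Sult5a1* (0.882), *Krt14*, a basal keratin (0.878), and *Dag1* (0.854). *Cd9* lay nearest to *Anxa1* (0.925), *Perp* (0.872) and *Idh1* (0.869), and *Plet1* to *Cyp2f2* and *Cd24a* (0.816 each) and *Slc43a2* (0.792). Among members the highest values were *Pdpn* with *Itgb4* (0.856), *Ly6a* with *Cd9* (0.811) and *Cldn3* with *Cldn4* (0.807), and the lowest *Cldn4* with *Itgb4* (-0.729).

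Most families of the members held genes that went either way between Ccl21a-high and Aire-high cells, where the median of all genes tested was 0.15 on the log2 scale and 35.2% were called higher and 24% lower (28.3 and 27.5% with median-of-ratios scaling). Of 21 other claudins 4 were testable, with *Cldn9* (2.77) and *Cldn1* (2.02) higher and *Cldn13* (-4.62) and *Cldn7* (-2.87) lower (median -0.43). Of 26 integrin and hemidesmosome genes 10 were testable, 7 higher and 1 lower (median 1.17), including the laminin-332 chains *Lama3* (2.95) and *Lamb3* (2.33), with *Itgb8* lower (-1.95). The other Ly6 family genes went mostly against *Ly6a*, with 8 of the 11 testable lower, such as *Psca* (-5.16) and *Ly6c2* (-4.34), and 1, *Ly6e*, higher (1.46), at a median of -2.59. Of 14 testable tetraspanins 7 were higher and 4 lower (median 0.31), among them *Cd151* (1.97), a partner of integrin α6, and *Tspan13* (-2.68).

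Of 29 other genes linked to TEC progenitors, 21 were testable, with 14 higher and 2 lower in Ccl21a-high cells (median 1.21), such as *Krt5*, a basal keratin (3.92), and *Fst*, the activin antagonist follistatin (3.76), against *Tnfrsf11a*, the RANK receptor (-1.03), and *Foxn1*, the TEC master transcription factor (-0.82). Against cycling cells the same list was called lower in cycling than in Ccl21a-high cells for 18 of 21 genes and higher for 0 (median -1.64), where 28% of all genes were lower and 24.4% higher (median -0.083).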

How the data were processed

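EpCAM-positive, CD45-negative thymic cells of 7 libraries were profiled by droplet single-cell RNA sequencing. Per the labels and the study's methods, the authors counted UMIs with Cell Ranger 2.2.0 against mm10 and filtered cells and genes with Seurat 2.3.4. What the authors deposited is, for each gene and cell, a natural log value, taken after scaling the cell to 10000 UMIs and adding 1 (the methods state another scale factor). Whole UMI counts were recovered in every cell (tolerance 0.001). A pair of combined tables was not used, and 0 columns were left unmapped.

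UMIs were summed per library and gate (at least 10 cells), scaled to CPM (1000000 per library and gate), kept where a gene's mean was at least 10 CPM, and tested as log2(CPM + 1) with limma 3.58.1 in R 4.3.3 (trend, library as block, 2-sided, Benjamini-Hochberg over all genes tested, threshold 0.05). Python 3.11.15 with numpy 2.4.6, scipy 1.17.1 and pandas 2.3.3 did the rest. The script was tested on simulated data. Intervals are exact Poisson, Clopper-Pearson or conditional binomial at 95% and cover counting error only. Gates were compared within libraries, so p-values measure the spread over 7 libraries of mixed treatment and age. No doublet caller was run, and the deepest 5% of cells were left out as an alternative.

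The genes, lists and gates were chosen with earlier results of these data known. All 8 genes are named in every comparison of gates, but not in every comparison of treatments or of cells with and without the reporter. Named beside them are up to 2 called genes per direction of each list in the first comparison of gates and the 3 genes of highest r for each member. Alternatives covered scaling, the filter, thresholds of gates, thinning, and leaving out cells or 1 library at a time. Promoters of *Ly6a*, *Itga6* and *Itgb4* and protein sequences were not used here.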

Additional observations from a re-analysis of the deposited data

Results flagged for a closer look

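For 8 combinations of gene and class, the ratio of the anti-RANKL to the isotype library lay on opposite sides of 1 at week 2 and week 10, with both 95% counting intervals clear of 1. Each ratio rests on 1 library per side, and the difference between the weeks was not tested. In Ccl21a-high cells *Ly6a* was at 0.57 at week 2 and 1.56 at week 10, *Cldn3* at 0.356 and 2.63, and *Itga6* at 0.798 and 1.19. All 3 were below the isotype library first and above it later.

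In cortical-gene cells *Ly6a* followed the same order, at 0.739 (interval 0.686 to 0.795) and 1.24 (1.10 to 1.39). The reverse order was seen in the other 4. In cycling cells *Ly6a* was at 5.86 (4.90 to 6.98) at week 2, and at 0.327 (0.271 to 0.393) at week 10. At week 2, 10 of the 17 anti-RANKL and 7 of the 119 isotype cycling cells were also Ccl21a-high, the class with high *Ly6a*, and at week 10, 2 of 104 and 12 of 137. The part of this makeup in the ratios was not tested. In Aire-high cells *Cldn4* was at 1.34 (1.13 to 1.59) and 0.646 (0.58 to 0.719). In cells of no gate *Itga6* was at 1.38 (1.20 to 1.59) and 0.743 (0.628 to 0.877), and *Itgb4* at 1.77 (1.41 to 2.2) and 0.724 (0.546 to 0.955).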

How the results depend on the processing

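Of the 839 recomputed differences 745 kept their direction and side of the threshold, 53 lost their call, 20 gained one and 21 changed sign. Shares of cells and co-detection ratios were recomputed with all UMIs or with thinning to 4000 UMIs in place of 2000. Of these, 67 of 80 shares and 26 of 214 ratios moved by more than the standard deviation over libraries of the values at 2000 UMIs. For a ratio with fewer than 2 usable libraries, its counting interval took the place of the standard deviation. Shares are expected to rise with depth. Counts of members called moved beyond 1.5-fold in 3 pairs of gates. For cortical-gene against Ccl21a-high cells (5 called) they were 3 without the filter on low values, with other gates' cells out, with the deepest cells out or with Cd3-positive cells out, 2 when thinned and 1 with all 3 cortical genes required, and 2 to 6 with 1 library left out. For cycling against Aire-high cells (4) they were 2 when thinned, with the deepest cells out or with all 4 cycling genes required, and for cortical-gene against cycling cells (4) 2 when thinned. With 1 library left out the counts were 8 to 8, 7 to 7, 4 to 4, 7 to 7 and 3 to 5 in the other pairs.

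Sign changes (log2) in cortical-gene against Ccl21a-high cells with all 3 cortical genes were *Cldn3* -2.02, *Cldn4* -1.74, *Itgb4* 0.18 and *Cd9* 0.23. With other gates' cells out they were *Itgb4* 0.011 and *Cd9* 0.20, and *Cd9* was at 0.16 when thinned and 0.029 with the deepest cells out. In cycling against Aire-high cells they were *Ly6a* -0.82 and *Itga6* -0.13 with other gates' cells out and *Pdpn* -0.57 when thinned. In cortical-gene against cycling cells, where neither claudin was called, *Cldn3* ran from -0.85 (called) without anti-RANKL week 4 to 0.026 without isotype week 10, was called at -2.85 with all 3 cortical genes, -0.83 with at least 25 cells or without anti-RANKL weeks 2, 4 and 6 and -0.76 with the deepest cells out, and was at 0.11 with all 4 cycling genes. *Cldn4* there was at -0.050 with median-of-ratios scaling, -0.10 without isotype week 2, -0.17 without anti-RANKL week 2, -0.079 without anti-RANKL week 10 (at most 0.20 with another library out), -0.11 with the deepest cells out, -0.059 with Cd3-positive cells out, -0.15 with fibroblast or T cell marker cells out and -2.22 with all 3 cortical genes. The causes were not tested. Leaving out fibroblast or T cell marker cells, or anti-RANKL weeks 2, 4 and 6, was chosen after seeing the data.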

Other observations

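Among cells of no gate, those with at least 2 tuft cell markers differed from the rest in other members too. Medians over the 7 libraries were 169 CPM of *Ly6a* against 856 CPM in the remaining cells, 4.71 against 25.2 CPM of *Pdpn*, 58.8 against 110 CPM of *Itga6* and 353 against 600 CPM of *Cd9*. The ranges of *Ly6a* (93.8 to 603 and 796 to 1359 CPM), *Pdpn* (0 to 10.3 and 14.7 to 163 CPM) and *Cd9* (294 to 482 and 492 to 854 CPM) did not overlap, and those of the other 5 members did. Within Ccl21a-high cells, the 438 that also passed the cortical gate held medians of 7.58 CPM of *Cldn3* and 7.58 CPM of *Cldn4*, against 46.4 and 37.1 CPM in the 591 cortical-gene cells that were not Ccl21a-high.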
